A study of Mus musculus with 6 samples.

Results

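The cells described here were labelled ILC (innate lymphoid cell) in the deposited annotation and carried 0 UMIs (unique molecular identifiers, which count single transcripts) summed over the T cell genes *Cd3d*, *Cd3e* and *Trac*. They numbered 2935 of 4628 cells with that label and of 33961 cells in all, and below they are called ILC-labelled cells. They were compared with the 4398 cells labelled NK cells. CD45+ leukocytes had been enriched from mouse tumors of CT26, an established colorectal carcinoma line, and profiled with 10x 3′ single-cell RNA sequencing. The sample labels name 6 tumors in 3 groups of 2, given vehicle, a low dose or a high dose of a PD-1 GITR-L bispecific antibody, which blocks the checkpoint receptor PD-1 and engages the costimulatory receptor GITR. The high dose was 30 mg/kg. The low dose was stated as 10 mg/kg in one label field and 30 mg/kg in another. The deposited table holds 4 libraries, named M1, M2, M5 and M6, and these names match no sample label. No library was therefore assigned to a treatment, no treatment comparison was made, and values are given library by library in the order M1, M2, M5, M6.

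Innate lymphoid cells are lymphocytes without rearranged antigen receptors. The group 1 cells among them comprise circulating NK cells, which kill through perforin and granzymes and depend on the transcription factor Eomes, and tissue-resident ILC1, which share *Ncr1* and *Tbx21* with NK cells and are known for IL-7 receptor, CXCR6 and other residency molecules. Helper ILC2 and ILC3 are defined instead by GATA3 with type 2 cytokines, or by IL-17 and IL-22. In tumors, NK cells and ILC1 can take on overlapping transcript programs, so labels that separate them rest on levels rather than on single genes.

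The label had been set by the authors from the best correlation of each cell's whole profile with ImmGen reference profiles, and the 3 T cell genes completed the choice. Every gene was thus used in choosing the cells. All values that set ILC-labelled against NK-labelled cells are descriptions, and no test was made between them. The ILC-labelled cells numbered 686, 622, 805 and 822 in the 4 libraries. They made up 63.4% of the ILC label (exact 95% binomial interval 62.0 to 64.8%), ranging from 60.3% in M6 to 68.0% in M2. As a share of all cells they were 6.66%, 6.96%, 11.2% and 10.9%, so the share was lower in M1 and M2 than in M5 and M6. The libraries held 10294, 8940, 7160 and 7567 cells in all. NK-labelled cells numbered 1016, 897, 1260 and 1225, and the other cells labelled ILC 389, 293, 470 and 541. The shares of both these sets were thus lower in M1 and M2 as well. Intervals cover counting error only. The libraries held 7160 to 10294 cells, with a median of 11399 to 21800 UMIs per cell. The median depth of ILC-labelled cells was 7482 to 8666 UMIs per library, above that of NK-labelled cells (4214 to 6052) and below that of the other cells labelled ILC (11325 to 16172). Mitochondrial transcripts had a median share of 3.40 to 3.65% in ILC-labelled cells and 3.59 to 3.89% in NK-labelled cells. In all, 111 cell barcodes occurred in more than 1 library, and 0 barcodes did so among the ILC-labelled cells.

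The 4 marker genes given for these cells did not separate them equally from NK-labelled cells. Levels are counts summed over the cells of a library and scaled so that they sum to 1000000 (CPM). *Ncr1*, which encodes the activating receptor NKp46 of NK cells and ILC1 (GRCm38 chromosome 7, 4337724 to 4345164), stood at 509, 560, 596 and 518 CPM in ILC-labelled cells and at 433, 491, 443 and 438 CPM in NK-labelled cells. Every library was higher in the first set, by a median log2 ratio of 0.23 (range over libraries 0.19 to 0.43, computed with 1 CPM added to both levels, as are all log2 ratios below). *Ctsw*, a cysteine protease of cytotoxic lymphocytes, stood at 442, 516, 559 and 527 CPM against 360, 411, 388 and 403 CPM, a median log2 ratio of 0.36 (0.29 to 0.53). Both genes were therefore abundant on both sides. *Xcl1*, a chemokine that attracts cross-presenting dendritic cells (chromosome 1, 164931644 to 164935527, minus strand), stood at 543, 588, 609 and 492 CPM against 183, 216, 159 and 180 CPM. As for the other markers given here, the lowest ILC-labelled library was above the highest NK-labelled library. The labels rest on these genes too, and the share of all genes without such overlap is not given, so this is only a description. The median log2 ratio of *Xcl1* was 1.504 (1.44 to 1.93). *Il7r*, the IL-7 receptor alpha chain, was low on both sides, at 16.6, 23.2, 35.6 and 28.5 CPM against 10.0, 6.24, 8.55 and 13.6 CPM, a median log2 ratio of 1.38 (0.67 to 1.94). Its 870 UMIs in ILC-labelled cells came from 362 cells. Against the 3733 NK-labelled cells that also lacked the 3 T cell genes, the median log2 ratio of *Il7r* was 2.19.

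**Figure D1:**
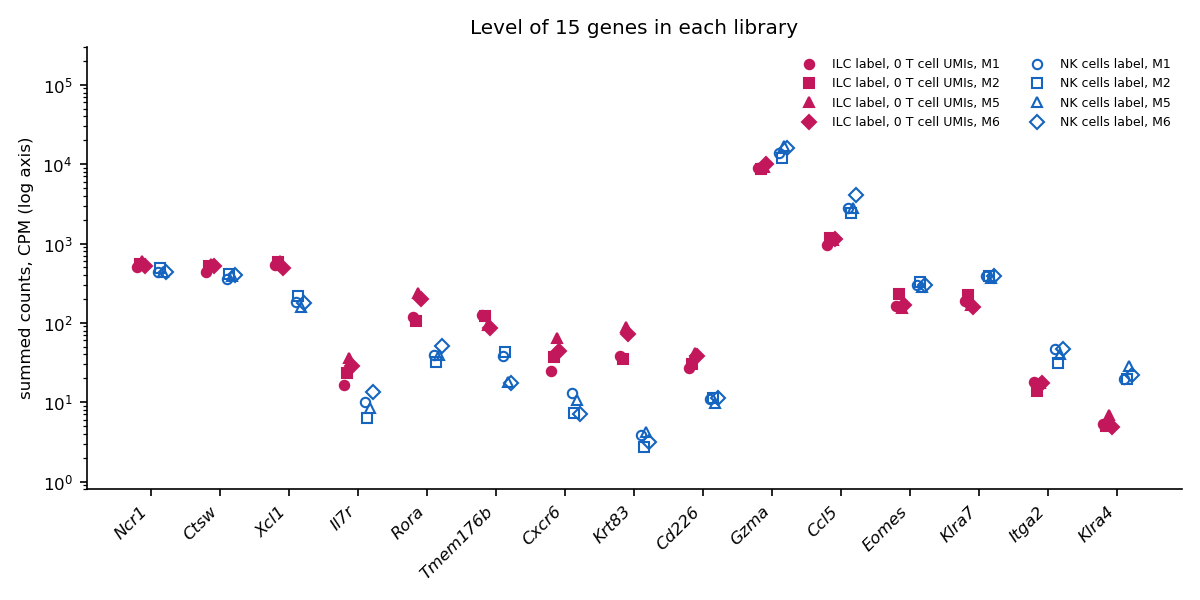
Level of 15 genes in CPM (log axis) in each of the 4 libraries, with ILC-labelled cells as filled and NK-labelled cells as open symbols. *Xcl1*, *Il7r*, *Rora*, *Tmem176b*, *Cxcr6*, *Krt83* and *Cd226* lay higher in all ILC-labelled than in all NK-labelled libraries. So did *Ncr1* and *Ctsw*, but these were close. *Gzma*, *Ccl5*, *Eomes*, *Klra7*, *Itga2* and *Klra4* lay lower. For how many of all genes the sets lay apart in this way is not given.

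Because the ILC-labelled cells were deeper, shares of cells with a UMI were compared after thinning each cell to 2000 UMIs, which left out 96 of the ILC-labelled and 180 of the NK-labelled cells. An *Ncr1* UMI was then found in 60.0% of ILC-labelled cells (exact 95% interval 58.2 to 61.8%) and 54.4% of NK-labelled cells. In cells labelled T cell EFF, which should lack the gene, the share was 1.95%, and in Myeloid cells it was 5.10%. *Xcl1* was found in 41.0% (39.2 to 42.8%) against 16.6%, and in 13.0% of T cell EFF cells and 4.63% of Myeloid cells. For *Ctsw* the shares were 61.9% and 54.1%. Without thinning, the *Ncr1* shares were 87.0% and 80.0% and the *Xcl1* shares 58.5% and 26.8%. *Il7r* was found in 6.09% of ILC-labelled cells (5.24 to 7.04%), 1.38% of NK-labelled cells (1.05 to 1.77%) and 21.2% of Myeloid cells, so its share in ILC-labelled cells lay above the NK-labelled but below the Myeloid share. *Eomes*, a T-box factor of NK cells, showed the opposite order, at 29.2% (27.5 to 30.9%) against 49.1% (47.6 to 50.6%), with 4.80% in T cell EFF cells. Each of these genes was thus found in cells of both sets, and the shares are a description, since the labels rest on the same genes.

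**Figure D2:**
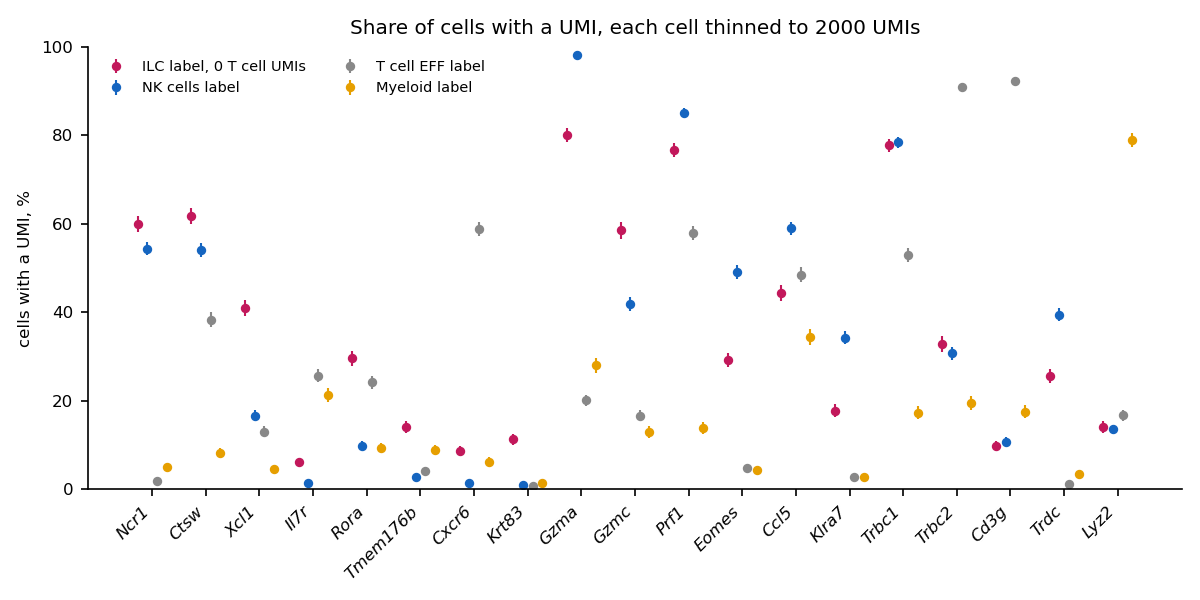
Share of cells (%) with at least 1 UMI of each gene after every cell was thinned to 2000 UMIs, with exact 95% binomial intervals, in ILC-labelled, NK-labelled, T cell EFF and Myeloid cells. *Xcl1*, *Rora*, *Krt83* and *Gzmc* were found in more ILC-labelled than NK-labelled cells, *Gzma*, *Eomes*, *Ccl5*, *Klra7* and *Trdc* in fewer, and *Trbc1* was close at 77.8% and 78.5%.

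The threshold at 0 UMIs was a graded one. The 494 cells labelled ILC with 1 UMI of the 3 T cell genes resembled the chosen cells, at 502 CPM of *Ncr1*, 565 CPM of *Xcl1* and 140 CPM of *Eomes*, against 546, 556 and 176 CPM with 0 UMIs. The 120 cells with 2 UMIs stood at 484, 419 and 186 CPM. In the 1079 cells with 3 or more UMIs, *Ncr1* was at 242 CPM and *Cd8a*, the CD8 coreceptor of T cells, at 172 CPM, against 2.12 CPM with 0 UMIs. *Il7r* went the other way, from 26.7 CPM with 0 UMIs to 33.4, 116 and 170 CPM with 1, 2 and 3 or more. *Cxcr6* stood at 44.2, 41.6, 96.8 and 211 CPM in that order. Several genes raised against NK-labelled cells below were as high or higher in the 1693 other cells labelled ILC. There *Rora* was at 220 CPM against 173 CPM, *Il2ra* at 69.5 against 24.7, *Areg* at 54.05 against 23.4 and *Cd226* at 35.2 against 35.05. *Xcl1* (347 against 556 CPM) and *Tcrg-C4* (14.75 against 19.7 CPM) were lower there. The median depth was 8045 UMIs with 0 and 10642, 9576 and 17182 UMIs with 1, 2 and 3 or more, and a shallow cell meets a rule of 0 UMIs more easily.

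Few genes were far apart between the 2 labels in every library. Of 7567 genes with at least 10 CPM in either pooled set, leaving out the 3 genes of the rule, 15 were over 2-fold higher in ILC-labelled cells in all 4 libraries (0.198% of genes) and 3 were over 2-fold lower (0.0396%). At 1.5-fold, 53 genes were higher (0.700%) and 13 lower (0.172%). The median log2 ratio over all these genes was -0.01, but scaling both sets to the same sum tends to hold this near 0. By sign alone, 33.8% of the genes went the same way in all 4 libraries. Without M1, which leaves fewer libraries for a gene to pass in, 28 genes were over 2-fold higher. With 10 CPM added to both levels 6 were higher and 1 lower. The shares at 2-fold and 1.5-fold serve below as the background for each gene list.

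**Figure D3:**
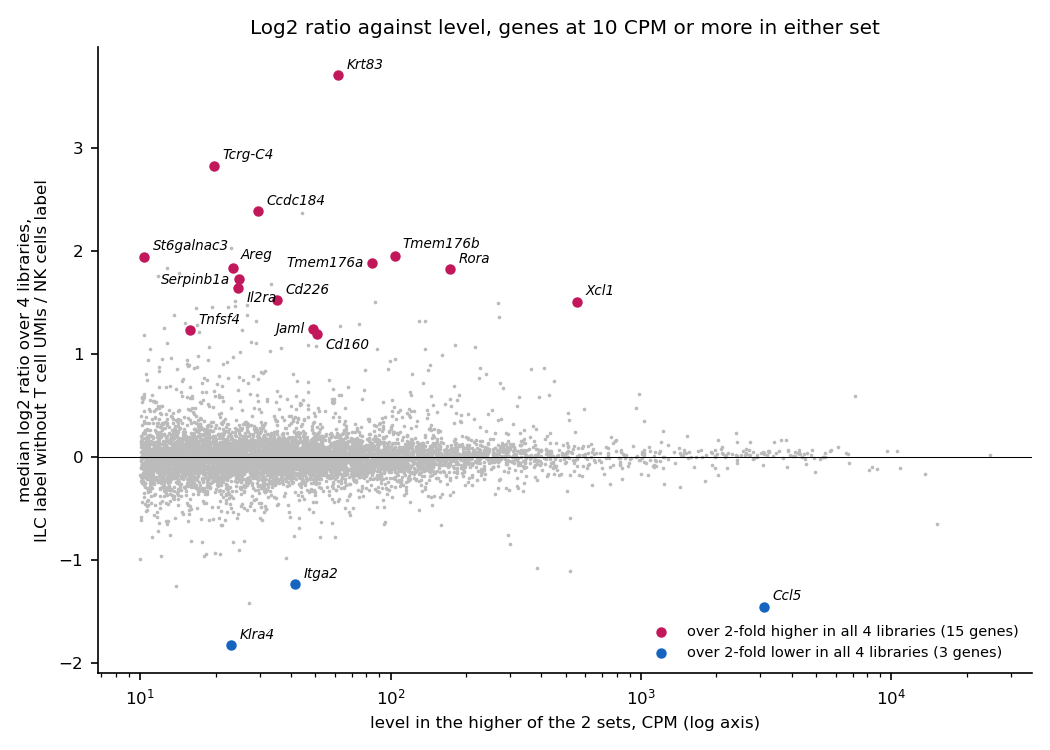
Median log2 ratio over 4 libraries (ILC-labelled over NK-labelled) against the level in the higher set in CPM (log axis) for 7567 genes. Named points are the 15 genes over 2-fold higher and the 3 over 2-fold lower in all libraries, *Krt83* being the highest at 3.70 and *Klra4* the lowest at -1.83.

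The most raised gene was *Krt83*, a hair keratin (chromosome 15, 101485130 to 101491512, minus strand). It stood at 38.5, 35.03, 89.5 and 71.4 CPM in ILC-labelled and 3.86, 2.69, 4.20 and 3.19 CPM in NK-labelled cells, a median log2 ratio of 3.70 (3.02 to 4.12). After thinning, a *Krt83* UMI was found in 11.2% of ILC-labelled cells (10.1 to 12.5%) and 0.877% of NK-labelled cells. Keratin genes have close relatives in the genome, and 3′ reads may not always tell them apart. *Rora*, a nuclear receptor that ILC2 need and that many tissue lymphocytes express, stood at 119, 105, 236 and 202 CPM against 39.2, 32.3, 39.5 and 50.8 CPM (median log2 ratio 1.82). The neighbouring genes *Tmem176a* and *Tmem176b*, which encode related membrane proteins and lie head to head on chromosome 6 (48840919 to 48847071 on the plus and 48833818 to 48841496 on the minus strand), had median log2 ratios of 1.88 and 1.95. *Tmem176b* stood at 124, 122, 93.7 and 85.2 CPM against 38.7, 43.3, 17.7 and 17.2 CPM. Libraries M1 and M2 were thus the higher for *Tmem176b*, and M5 and M6 for *Krt83* and *Rora*.

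The other higher genes included several receptors and ligands. *Cd226* (DNAM-1, an activating adhesion receptor) stood at 27.0, 30.7, 41.5 and 38.1 CPM against 11.1, 11.2, 9.90 and 11.4 CPM, a median log2 ratio of 1.52. *Cd160*, a receptor for the TNF receptor family member HVEM, had a median log2 ratio of 1.19, and *Il2ra*, the IL-2 receptor alpha chain, had 1.64. *Jaml*, a junctional adhesion molecule, and *Tnfsf4*, the ligand of OX40, stood at 1.24 and 1.23, with 35.01% of the *Tnfsf4* UMIs in 5 cells. *Areg*, the growth factor amphiregulin, had a median log2 ratio of 1.83, but 32.9% of its 762 UMIs were in 5 cells. Of those UMIs, 35.3% were in a cluster led by fibroblast genes and 17.3% in a cluster of 19 cells, clusters 9 and 10 below. *Serpinb1a*, a protease inhibitor, had 1.72, *Ccdc184* 2.38 and the sialyltransferase gene *St6galnac3* 1.94. *St6galnac3*, *Jaml* and *Tnfsf4* are named because they belong to the counted 15 genes, after their values were seen. After thinning, *Ccdc184* (lowest library log2 ratio -0.15), *Jaml* (0.81) and *Tnfsf4* (0.46) were no longer over 2-fold in every library. *Cxcr6*, the receptor of CXCL16 and a residency marker, was higher by a median log2 ratio of 2.36 but missed the 2-fold rule in 1 library (range 0.87 to 2.51). It stood at 25.0, 37.2, 64.7 and 44.7 CPM against 13.2, 7.22, 10.5 and 7.02 CPM.

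The 3 genes over 2-fold lower were *Ccl5*, *Itga2* and *Klra4*. *Ccl5*, a chemokine made by cytotoxic lymphocytes, stood at 956, 1170, 1112 and 1134 CPM in ILC-labelled and 2833, 2456, 2826 and 4069 CPM in NK-labelled cells (median log2 ratio -1.46). *Itga2*, the integrin recognised as DX5 on mouse NK cells, stood at 18.0, 13.7, 17.6 and 17.3 CPM against 46.7, 31.3, 40.4 and 47.0 CPM (-1.24). *Klra4*, which encodes the activating receptor Ly49D, stood at 5.35, 5.07, 6.83 and 4.92 CPM against 19.7, 19.3, 28.4 and 21.9 CPM (-1.83). The libraries of the sets did not overlap for these 3 genes, but the 2-fold rule that chose them makes this likely. The share of all genes without overlap is not given here. *Ccl5* had the other sign under the wider rule described below. *Klra* genes are a family of similar sequences that differ between mouse strains, so counts of single members are uncertain. The authors report Balb/c hosts for CT26 tumors, and whether the *Klra4* counts come from *Klra4* itself was not tested.

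Gene lists were read against those shares. Of all 7567 genes, 15.7% were higher by any amount in every library and 18.2% lower. The helper ILC2 and ILC3 list had the median log2 ratio 0.98 over 6 genes (0.48 to 1.69 in single libraries), and the ILC1 and tissue residency list 0.77 over 12 genes. Of 15 genes of the ILC1 and tissue residency list, 12 reached 10 CPM, and 2 of these were over 2-fold and 6 over 1.5-fold higher in all libraries, with none lower by 1.5-fold. By any amount 10 were higher in every library and 1 was lower, *Il18r1*, an IL-18 receptor chain (-0.29). The list median lay between 0.61 and 0.90 in single libraries. The 6 were *Tmem176a*, *Tmem176b*, *Cxcr6*, *Il7r*, the death ligand gene *Tnfsf10* (median log2 ratio 1.21) and the early activation and retention marker *Cd69* (0.93). *Itga1*, the collagen-binding integrin CD49a of ILC1, was at 78.2 CPM against 75.5 CPM, with a range of log2 ratios from -0.14 to 0.21. The transcription factor gene *Zfp683* had 9 UMIs in all ILC-labelled cells. Of 12 circulating mature NK genes at 10 CPM, 9 of them were lower in every library (18.2% of all genes), 1 of them over 2-fold, and the list median was -0.37. *Eomes* stood at 164, 232, 155 and 169 CPM against 304, 325, 282 and 302 CPM (-0.85). *Itgam*, the maturation integrin CD11b, had a median log2 ratio of -0.90, and *Klrg1*, an inhibitory receptor of mature cells, had -0.34. *Ly6c2*, a surface antigen of the same list, was higher, at 0.86. The NK and ILC1 shared list had a median of -0.03, with *Xcl1* and *Ccl5* as its only genes over 1.5-fold in all libraries. *Klrd1*, *Klrk1*, *Nkg7*, *Tyrobp* and *Fcer1g*, which encode NK receptors, a granule protein and signalling adaptors, stayed between -0.11 and 0.05 in median log2 ratio. By any amount, 4 of the 15 shared genes were higher and 5 lower in every library, against 15.7% and 18.2% of all genes. Among these were *Cd7* (0.59), *Klrb1c* (-0.22) and *Klre1* (-0.17).

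**Figure D4:**
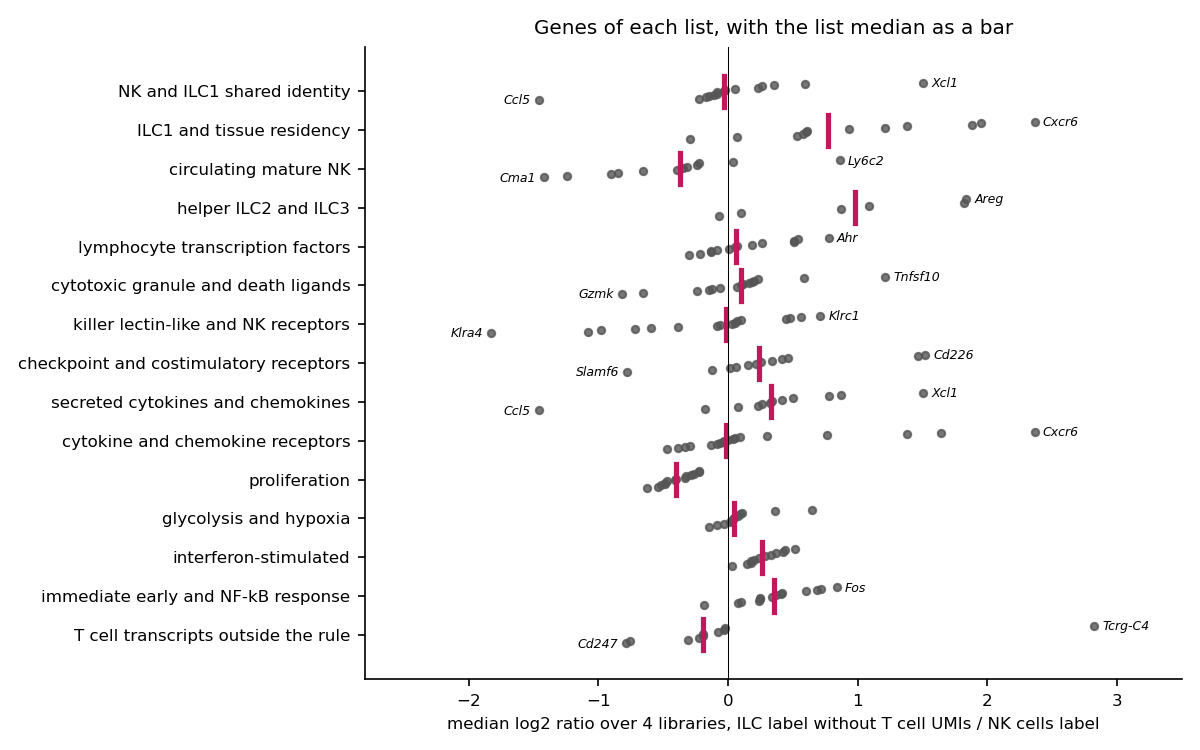
Median log2 ratio over 4 libraries (ILC-labelled over NK-labelled) for each gene at 10 CPM or more in 15 lists, with the list median as a bar and the outermost genes named. The ILC1 and tissue residency list centred on 0.77, circulating mature NK on -0.37 and proliferation on -0.40, and the last centred on -0.056 once each cell was thinned to the same depth.

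In the fixed list of lymphocyte transcription factors, which does not hold *Rora* and *Eomes*, 0 of 14 genes were past 1.5-fold in all libraries, against 0.700% of all genes higher and 0.172% lower, so the count says little of these factors. *Id2*, which all innate lymphoid cells need, was at 793 CPM against 771 CPM, and *Tbx21*, the T-box factor of group 1 cells, at 65.2 CPM against 57.6 CPM. *Ahr*, a ligand-sensing factor of tissue lymphocytes, had the highest median log2 ratio of the list, 0.78. Genes of the helper list were mixed, with some higher, some close to the NK-labelled level and several cytokines rare. *Il22* had 0 UMIs in the 32609886 UMIs of the ILC-labelled cells, and *Il17a* had 1. Of the 16 genes of the helper ILC2 and ILC3 list, 6 reached 10 CPM, of which 3 were over 1.5-fold higher and 0 lower, with a list median of 0.98. *Rora* and *Areg* were over 2-fold higher, *Kit*, the stem cell factor receptor, had a median log2 ratio of 1.09, and *Gata3* was at 52.1 CPM against 50.3 CPM. *Il1rl1* was at 33.2 CPM against 33.7 CPM (-0.07, range -0.51 to 0.37). Without the 19 cells of cluster 10, described below, *Areg* was no longer over 2-fold higher in every library (lowest log2 ratio 0.67). *Il13* had 238 UMIs in 10 cells and *Il5* had 51 UMIs in 5 cells.

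Granzyme levels differed in both directions. *Gzma* stood at 8935, 8572, 9288 and 9987 CPM in ILC-labelled and 13805, 12033, 17180 and 16085 CPM in NK-labelled cells. The median log2 ratio was -0.66 (range -0.89 to -0.49). *Gzmc* went the other way, at 5831, 4459, 9496 and 7900 CPM against 3602, 3394, 5715 and 5670 CPM (0.59, range 0.39 to 0.73). After thinning, *Gzma* was found in 80.1% of ILC-labelled and 98.1% of NK-labelled cells, and *Gzmc* in 58.5% and 41.9%. In Myeloid cells the shares were 28.0% and 13.0%. *Gzmb* was at 4523 CPM against 4955 CPM, and *Prf1*, the pore-forming perforin, at 1487 CPM against 1798 CPM, lower in every library by a median log2 ratio of -0.24. *Gzmd*, *Gzme*, *Gzmf* and *Gzmg* are near-identical neighbours whose reads may be split between them. Their median log2 ratios lay between -0.06 and 0.23 with wide ranges, and 29.8% of the *Gzmg* UMIs were in 5 cells. *Gzmk* was over 1.5-fold lower in all libraries (-0.82). Among 16 killer lectin-like and NK receptor genes, *Klra7* (-1.08), *Klra1* (-0.98) and *Klra3* (-0.59) were lower beside *Klra4*, while *Klrc1*, which encodes NKG2A, was higher at 0.71. Of the 16, 2 were over 1.5-fold lower in all libraries (*Klra4* and *Klra7*) and 0 higher, against 0.172% and 0.700% of all genes. By any amount 6 were lower and 4 higher (18.2% and 15.7% of all genes), and the list median was -0.01. *Klrc1* was found in 41.2% of ILC-labelled and 25.9% of NK-labelled cells after thinning.

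The receptors targeted by the antibody were looked at in every library. *Tnfrsf18*, which encodes GITR, stood at 184, 176, 227 and 217 CPM in ILC-labelled and 154, 134, 143 and 158 CPM in NK-labelled cells, a median log2 ratio of 0.42. Its UMIs were in 2105 of the 2935 ILC-labelled cells, and after thinning in 35.3% against 28.6% of NK-labelled cells and 49.8% of T cell EFF cells. *Pdcd1*, which encodes PD-1, stood at 16.4, 25.6, 38.5 and 24.6 CPM against 15.4, 9.05, 12.7 and 5.01 CPM, a median log2 ratio of 1.47 that ranged from 0.09 in M1 to 2.09. Against NK-labelled cells that also lacked the 3 T cell genes, where *Pdcd1* was at 3.71 CPM, it was 2.44. Its UMIs were in 176 ILC-labelled cells. After thinning, the *Pdcd1* share was 3.24% in ILC-labelled, 1.16% in NK-labelled, 6.24% in Myeloid and 63.4% in T cell EFF cells, so the ILC-labelled share lay below the Myeloid share. Among 12 checkpoint and costimulatory genes, 8 were higher in every library (15.7% of all genes) and 1 of them, *Cd226*, over 1.5-fold.

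Of the 12 genes at 10 CPM in the fixed list of secreted cytokines and chemokines, *Xcl1* and *Ccl5* were past 1.5-fold in all libraries, in opposite directions. Outside that list, *Areg*, the chemokine gene *Cxcl3* (median log2 ratio 2.02) and the activin subunit gene *Inhba* (1.54) were past 1.5-fold too, with 60.6% of the *Cxcl3* and 34.1% of the *Inhba* UMIs in 5 cells. The interferon gamma gene *Ifng* was at 48.4 CPM against 40.4 CPM. The chemokine genes *Ccl3* and *Ccl4* had median log2 ratios of 0.50 and 0.23, but 30.4% and 22.5% of their UMIs were in 5 cells. No gene passed 1.5-fold among 14 immediate early and NF-κB genes, though 10 of them were higher in every library, against 15.7% of all genes (list median 0.35, *Fos* highest at 0.84). Among the clusters described below, *Fos* was at 579 CPM in cluster 9, led by fibroblast genes. It was at 299 CPM in cluster 5, led by macrophage and neutrophil genes. In cluster 1, the largest, it was at 41.8 CPM, a log2 ratio of -0.90 to NK-labelled cells. Clusters 3, 8 and 10 were also above NK-labelled cells, at 189, 163.5 and 628 CPM of *Fos* (1.25, 1.04 and 2.97). The remaining clusters were below NK-labelled cells for *Fos*. *Egr1* was at 1122, 234 and 57.0 CPM in clusters 9, 5 and 1, and at 92.6, 66.5 and 157 CPM in clusters 3, 8 and 10. The part of single clusters in the list median was not tested. Without cells holding over 0.1% of UMIs of other cell types, the list median was 0.30. Glycolysis and hypoxia genes centred on 0.04 and interferon-stimulated genes on 0.26. Of 14 proliferation genes, 11 were lower in every library, against 18.2% of all genes, with a median of -0.40, and *Ccnb1* was the 1 past 1.5-fold. The pooled sums weight deep cells, and after thinning the list centred on -0.056. The shares of cells with an *Mki67* UMI were then 6.83% (5.93 to 7.82%) and 5.83% (5.14 to 6.58%).

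T cell receptor transcripts outside the rule were present under both labels. Of 10 such T cell genes at 10 CPM, 1 was over 2-fold higher, 0 over 2-fold lower, and the list median was -0.19. *Trbc1* and *Trbc2*, the beta constant regions, stood at 798 and 269 CPM in ILC-labelled and 827 and 272 CPM in NK-labelled cells. Requiring 0 UMIs of *Trbc1*, *Trbc2* and *Cd3g* as well would have kept 58 cells, or 1.25% of the ILC label, with a median depth of 2874 UMIs. Of NK-labelled cells, 117 met that wider rule. In those 58 cells 5 of 22 genes followed had the other sign, with log2 ratios of -0.23 for *Ncr1*, -2.67 for *Gzmc*, -1.75 for *Pdcd1*, -0.79 for *Il2ra* and 0.83 for *Ccl5*. Outside those 22, *Tnfsf4* (-2.78), *Ccdc184* (-2.34) and *Serpinb1a* (-0.36, range -2.95 to 3.04) also had the other sign. *Tnfsf4* and *Ccdc184* were then under 10 CPM. *Cd3g* was at 78.3 CPM against 96.6 CPM, a median log2 ratio of -0.31, which turned to 0.36 against NK-labelled cells that met the same rule (61.7 CPM). *Trdc*, the delta constant region, was at 183 CPM against 296 CPM, lower in every library. *Tcrg-C4*, a gamma constant region, was higher, at 19.0, 20.6, 23.0 and 16.3 CPM against 2.31, 1.59, 1.51 and 2.55 CPM, a median log2 ratio of 2.83 from 641 UMIs in 353 cells. Gamma constant genes resemble each other, and the counting may not separate them. *Cd8a*, *Cd4* and *Foxp3* were at 2.12, 0.521 and 0.215 CPM in ILC-labelled cells.

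Transcripts of other cell types were present in the ILC-labelled cells at low levels. The summed level of 8 macrophage genes was 246 to 552 CPM per library in ILC-labelled and 178 to 451 CPM in NK-labelled cells, against 11684 CPM in cells labelled Myeloid, and 3 of the 8 were higher in every library. The sum of 5 fibroblast genes was 54.8 to 275 CPM against 42.4 to 125 CPM, with 1438 CPM in cells labelled Stroma. For 6 neutrophil and mast cell genes it was 96.3 to 180 CPM against 17.6 to 260 CPM, and for 6 dendritic cell genes 32.8 to 54.1 CPM against 26.1 to 41.1 CPM. The sum of 4 B cell genes stayed at or under 4.46 CPM in each library. Of 7 CT26 and epithelial genes, 2 reached 10 CPM and *Krt19* was at 0. In 9.98% of ILC-labelled and 6.64% of NK-labelled cells, macrophage, neutrophil, mast cell and fibroblast genes exceeded 0.1% of UMIs. With those cells left out, 18 genes were over 2-fold higher and 4 lower, and among these were all 15 and all 3 named above. Median log2 ratios were then 1.89 for *Tmem176a* and 1.84 for *Tmem176b*.

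The ILC-labelled cells were not uniform. Clustering them alone gave 10 clusters, numbered here by size, and cells of all 4 libraries were in each. Leading genes define a cluster and are given as its description. Cluster 1 (774 cells) had 13966 CPM of *Gzma*, a log2 ratio of -0.12 to NK-labelled cells. It was lower than NK-labelled cells for *Ccl5* (-3.52), *Itgam* (-2.13), *Itga2* (-1.60), *Eomes* (-0.66) and *Klra7* (-0.51). Of the ILC1 and tissue residency list, *Il7r* (-1.16), *Il18r1* (-0.81) and *Tmem176b* (-0.57) were lower too, while *Cxcr6* (0.62) and *Cd69* (0.36) were higher. The circulating mature NK genes *Klrg1* (0.01) and *Prf1* (0.10) were close, and *Ly6c2* (0.33) was higher. The first leading genes of cluster 1 were immunoglobulin genes whose UMIs came almost wholly from 1 cell. Cluster 2 (705 cells) was led by *Krt83*, *Pdcd1*, *Serpinb1a*, *Rora*, *Tcrg-C4*, *St6galnac3*, *Cxcr6*, *Cd226*, the chemokine receptor gene *Cxcr3* and *Tnfsf8*. It held 24.0% of the cells and 18.4% of the UMIs, but 74.8% of the *Krt83*, 56.7% of the *Rora*, 55.9% of the *Cxcr6* and 46.9% of the *Xcl1* UMIs. *Xcl1* there reached 1414 CPM, while *Eomes* was at 79.7 CPM and *Gzma* at 2290 CPM. *Gzmc* was at 9070 CPM in cluster 2, above its 4807 CPM in NK-labelled cells. Its share of the ILC-labelled cells was 15.7%, 19.1%, 33.0% and 25.8% in the 4 libraries. Cluster 3 (693 cells) was led, besides cytokine genes found in 3 to 9 cells, by *Ccl5* at 5403 CPM, followed by *Ret*, *Plxnc1*, *Ccl3* and *Ccl4*. Of the *Ccl3* and *Ccl4* UMIs there, 24.5% and 14.6% came from 1 cell. Cluster 3 carried 377 CPM of *Eomes*. It held 58.4% of the *Ccl5* UMIs.

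The 7 smaller clusters held 19 to 165 cells. Cluster 6 (154 cells) was led by cell cycle genes, with 502 CPM of *Mki67*, and held 68.0% of the *Mki67* UMIs. Cluster 7 (90 cells) carried 8633 CPM of *Gzmg* and 16758 CPM of *Gzmf*, and cluster 8 (86 cells) was led by interferon-stimulated genes such as *Mx1* (250 CPM). Cluster 4 (165 cells) had 21.5% mitochondrial UMIs and a median depth of 2623 UMIs. Cluster 5 (163 cells) was led by macrophage and neutrophil genes and held 72.6% of the *Lyz2* UMIs, together with 25.2% of the *Il7r* UMIs. Cluster 9 (86 cells) was led by fibroblast genes such as *Dcn*, had a median depth of 35254 UMIs, and held 89.7% of the *Dcn*, 37.7% of the *Tmem176b* and 39.8% of the *Tmem176a* UMIs. The leading genes of clusters 5 and 9 went against the ILC label. The 4 markers were present in both clusters. In cluster 5 their log2 ratios to NK-labelled cells were -0.195 for *Ncr1*, -0.12 for *Ctsw*, 1.30 for *Xcl1* and 3.195 for *Il7r*. In cluster 9 they were -1.37, -1.16, -0.03 and -1.48. No result is given here without these clusters. The values given above left out 293 cells chosen by their UMIs of other cell types, not by cluster. The part of clusters 5 and 9 in the results was not tested. Cluster 10 held 19 cells and was helper ILC2-like by the fixed list, with 445 CPM of *Il5*, 105 CPM of *Il17rb*, 854 CPM of *Gata3*, 1814 CPM of *Rora* and 663 CPM of *Il7r*. Its *Ncr1* UMIs numbered 9, all in 1 cell. It held 13.9% of the *Il13* UMIs, while 84.4% were in 3 cells of cluster 3. All *Il5* UMIs of the ILC-labelled cells lay in its 5 positive cells, and 78.4% of them in 1 cell. Without cluster 10, 13 genes were over 2-fold higher, and the *Cxcr6* median log2 ratio was 2.11. *Areg* and *Tnfsf4* were no longer among the higher genes, with lowest library log2 ratios of 0.67 and 0.997.

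**Figure D5:**
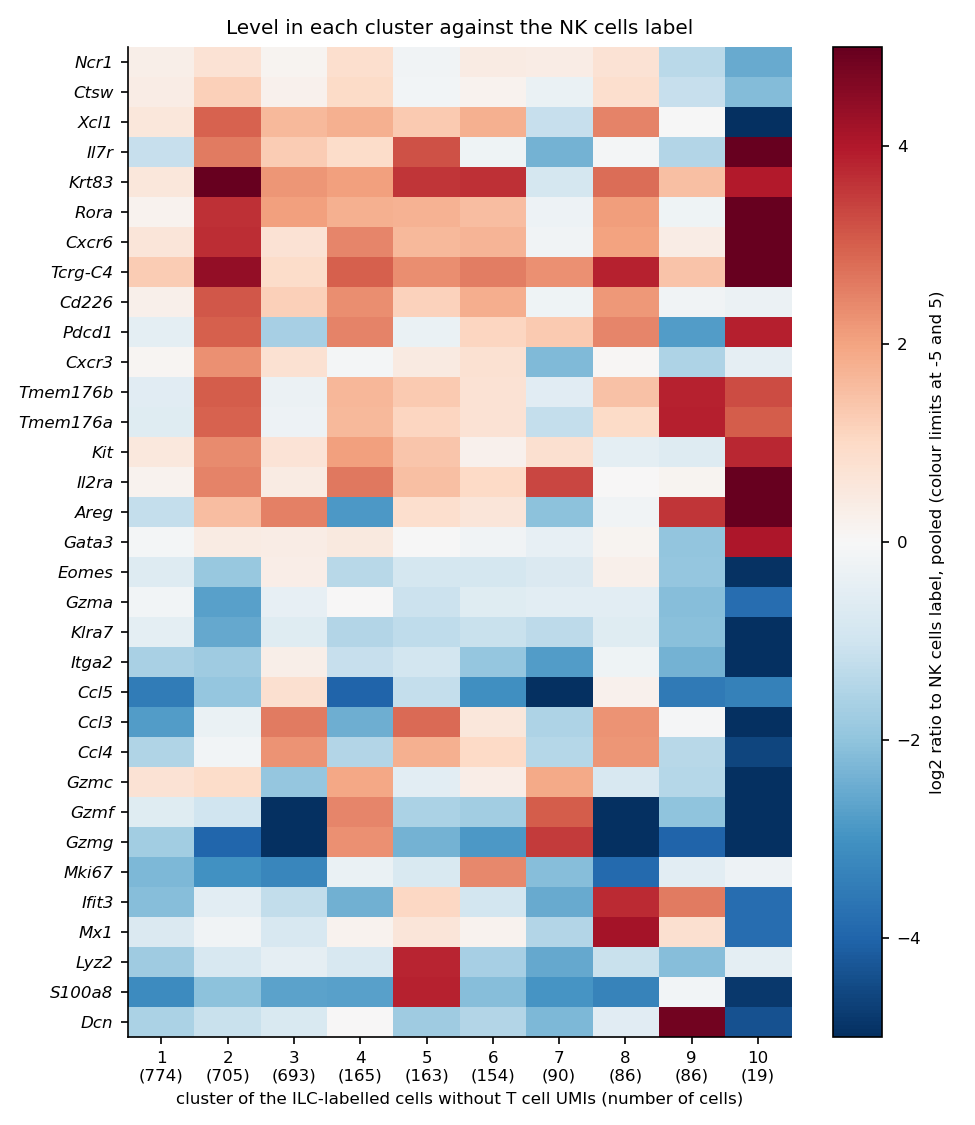
Log2 ratio of the pooled level in each of 10 clusters of the ILC-labelled cells (columns, with cell numbers) to the pooled NK-labelled cells for 33 genes, with colours limited at -5 and 5. Cluster 2 was high for *Krt83*, *Rora*, *Cxcr6* and *Xcl1* and low for *Gzma* and *Eomes*, cluster 5 was high for *Lyz2* and *S100a8*, cluster 9 for *Dcn*, and the 19 cells of cluster 10 for *Rora*, *Il7r* and *Areg*.

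Pairs of genes were also counted in the thinned cells, which are the same cells and counts as the clusters and so no further support for them. Of 841 ILC-labelled cells with a *Rora* UMI, 30.1% had a *Krt83* UMI, 18.0% a *Cxcr6* UMI and 60.8% an *Xcl1* UMI, against 3.30%, 4.65% and 32.7% of the 1998 cells without *Rora*. *Gzma* was found in 60.8% of cells with and 88.3% of cells without *Rora*. NK-labelled cells showed the same directions at other levels. Their shares with and without *Rora* were 3.61 and 0.579% for *Krt83* and 3.85 and 1.13% for *Cxcr6*. They were 26.2 and 15.6% for *Xcl1* and 95.4 and 98.4% for *Gzma*. Of 829 ILC-labelled cells with an *Eomes* UMI, 91.9% had *Gzma* and 35.2% had *Xcl1*, against 75.3% and 43.4% of the 2010 without. *Il7r* was found in 4.22% of cells with and 6.87% without *Eomes*, *Itga1* in 9.77% and 14.0%, and *Cd200r1*, an ILC1-associated inhibitory receptor, in 0.965% and 1.79%. *Ncr1* was found in 57.4% of cells with and 61.1% without *Eomes*, and in 63.3% with and 58.7% without *Rora*. For *Mki67* the shares were 6.88% and 6.82% by *Eomes*, and 4.76% and 7.71% by *Rora*. *Eomes* and *Rora* were both found in 184 cells.

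Levels also differed between libraries. *Krt83*, *Rora*, *Kit* and *Ly6c2* were higher in M5 and M6 than in M1 and M2 among ILC-labelled cells. *Kit* stood at 23.3, 33.5, 69.6 and 52.0 CPM, and *Ly6c2* at 310, 282, 598 and 403 CPM. NK-labelled cells showed the same order for *Kit*, at 13.1, 17.7, 26.3 and 20.6 CPM, and for *Ly6c2*, at 206, 142, 240 and 241 CPM. *Gzmc* ran parallel in both sets as well, lower in M1 and M2. *Ncr1*, *Xcl1* and *Ctsw* stayed within 1.5-fold between any 2 libraries of ILC-labelled cells. Since the libraries could not be tied to treatments, these differences belong to single libraries, and treatment, animal and library cannot be told apart.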

How the data were processed

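The authors prepared CD45+ cells from dissociated tumors with the 10x 3′ kit and, per the submitters' processing notes, counted UMIs with Cell Ranger 3.0.2 on mm10 (GRCm38). The deposited counts are raw UMI counts per gene and cell, with cell type labels that the authors took from correlation with ImmGen. No doublet removal or correction for free RNA is given in the sources used here. Counts of the 31053 genes were summed per library over the cells of each set and scaled to CPM with Python 3.11.15, numpy 2.4.6 and scipy 1.17.1. Log2 ratios used a pseudocount of 1 CPM, and genes needed 10 CPM in either pooled set. Cells were thinned to 2000 UMIs without replacement for shares, with exact 95% intervals. Clusters were made in scanpy 1.11.5 from 2000 variable genes, 30 principal components, 15 neighbours and Leiden resolution 0.5. Genes were named as the markers, the list genes with the largest ratios, the 15 highest and 15 lowest genes at 20 CPM or more with 1 direction in every library, and the leading genes of a cluster. Doublet scores came from scrublet (expected rate 6%), whose own cut-off marked 260, 155, 0 and 0 cells in the 4 libraries and was not used. No cell was removed, and the 6% with the highest scores were left out in an alternative. The ratio and thinning steps were tested on simulated data. Gene positions are from GENCODE M21 on GRCm38. The cells and the gene lists were chosen with earlier results of these data known. Results for some genes are not reported here.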

Additional observations from a re-analysis of the deposited data

How the results depend on the processing

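No paired test was made, since no result comes from a test. The ratios themselves pair both sets within each library, except those of clusters, which were pooled. The counts of 15 higher and 3 lower genes became 24 and 3 against NK-labelled cells that also lacked the 3 T cell genes, 6 and 1 with 10 CPM added, 19 and 6 after thinning, 6 and 1 at a minimum of 50 CPM, 19 and 7 with no minimum, 53 and 13 at 1.5-fold and 2 and 0 at 4-fold. Leaving out 1 library at a time gave 18 to 28 higher genes, the 28 without M1, and 3 to 4 lower genes. The rule asks for every library, so leaving 1 out can lose a gene only through the 10 CPM minimum. Of the 15 higher genes, 12 were among the 19 after thinning, and 14 were kept without M5, without M6 or without cells over 10% mitochondrial UMIs, *St6galnac3* falling under 10 CPM. With the wider rule (58 cells, 12 in the smallest library) there were 49 and 188 genes, 2 of the 15 and 0 of the 3 among them. The log2 ratios were then -0.23 for *Ncr1*, 1.14 for *Xcl1*, 3.04 for *Il7r*, 0.20 for *Ctsw*, 0.83 for *Ccl5*, -0.79 for *Il2ra*, -2.67 for *Gzmc* and -1.75 for *Pdcd1*, so that *Ncr1* and the last 4 had the other sign, and the list medians 0.43 (ILC1 and residency), -1.19 (killer lectin-like) and -1.39 (proliferation). That rule kept few and shallow cells. Against NK-labelled cells without the 3 genes, *Il7r* had 2.19 and proliferation -0.26. After thinning, *Xcl1* had 1.92 and *Il7r* 2.44, and the list medians were 0.91 (ILC1 and residency), -0.63 (circulating mature NK), -0.18 (killer lectin-like) and -0.056 (proliferation). Setting the median of all genes to 0 kept all 15 and all 3 genes.

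The cells were 63.4% of the ILC label, against 1.25% with the wider rule, 77.6% when cells were thinned before the rule and 69.2% without the top scrublet scores. Without 1 library at a time this share ranged from 62.3 to 64.7%. They were 8.64% of all cells, against 0.171% with the wider rule, 8.97% without cells over 10% mitochondrial UMIs, 7.95 to 9.50% without 1 library and 19.6% of lymphocyte labels. The shares with a UMI at 1000 UMIs, 4000 UMIs and no thinning were 39.4, 79.6 and 87.0% for *Ncr1*, 30.7, 50.8 and 58.5% for *Xcl1*, 4.02, 7.40 and 12.3% for *Il7r*, 42.2, 82.3 and 89.6% for *Ctsw* and 17.5, 43.2 and 61.0% for *Eomes*, since detection depends on depth. A resolution of 0.8 gave 16 clusters and 0.3 gave 8. Leaving out cells with genes of other cell types and cluster 10 were alternatives chosen after seeing the data. Of 308 log2 ratios of 22 named genes under the alternatives, 261 moved by less than 1 SD over libraries, 45 moved by more and 2 called values turned sign. Of 280 list medians 33 moved and 26 had another sign, and of 100 other values 40 moved.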
